A study of Saccharomyces cerevisiae CEN.PK113-7D with 6 samples.

Results

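The transcripts described here are those of 33 Saccharomyces cerevisiae genes that build, fill, divide and hand on peroxisomes: 25 peroxins (PEX genes), the inheritance genes INP1 and INP2, the import chaperone DJP1, the division genes VPS1, DNM1 and FIS1, and the transcription factor genes OAF1 and PIP2. A further 4 peroxins were not analysed here. The 33, and the further gene lists used below, were chosen by name with earlier results of these data known. Each of the 33 had exactly 1 probe set among the 5449 S. cerevisiae genes measured. The data comprise 3 arrays of chemostat samples (replicates 4, 8 and 9) and 3 arrays of batch samples (replicates 1, 2 and 3). All samples are of the laboratory yeast strain CEN.PK113-7D, labelled WT (wild type), and were grown on glucose. In a chemostat cells are fed and drained without pause, whereas a batch culture gets no fresh medium. The sources used here do not state the dilution rate, the limiting nutrient or when the batch samples were taken. Whether replicates came from separate cultures is not stated either. The p-values weigh the gap between groups against the spread within groups, which may therefore be only a technical spread. Per-array values are printed in the order of these replicate numbers, and n = 3 arrays per group throughout.

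Peroxisomes are small organelles that hold the whole of fatty acid beta-oxidation in yeast, part of the glyoxylate cycle and a catalase. Their enzymes are made in the cytosol and pulled in, folded, by cycling receptors. Membrane proteins arrive through Pex3 and Pex19, and organelle number is set by membrane elongation, fission and inheritance by the bud. In S. cerevisiae glucose represses many genes for peroxisomal enzymes, and oleate induces them through the paired activators Oaf1 and Pip2.

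Values are log2 signals of single-channel arrays, so a change of 1 is a doubling, and changes are given as chemostat minus batch. The number of arrays limits the precision. Medians of all genes lay between 7.95 and 7.97 on the 6 arrays. Pearson correlations across genes, which are not independent replicates, were between 0.995 and 0.999 within chemostat, 0.994 and 0.997 within batch, and 0.815 and 0.853 across groups. A background level of 5.93 was taken as the 95th percentile of the probe sets for fission yeast, an organism that is not in the samples. All 6 markers of the a mating type, which this strain has, lay above it in both groups. Of 4 markers of the alpha type, 2 were above it in both groups, at means of 7.13 or lower. The arrays measure bulk RNA, so more transcript per cell and more cells holding the transcript cannot be told apart.

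Peroxin and peroxisome division transcripts were mostly, and mostly modestly, higher in chemostat. Of the 33 genes, 27 rose, 3 fell (DJP1, PEX25 and PEX31) and 3 did not pass (PEX13, VPS1 and INP2). Calls rest on limma's moderated test of chemostat against batch, Benjamini-Hochberg adjusted over the 5449 genes and called below 0.05. By the same rule 33.6% of all genes were higher in chemostat and 44.8% were lower. The median change of the 33 was 0.40, against -0.06 over all genes, and 19 of the 33 changed by less than 0.5 in either direction. Quantile normalization left 23 genes higher and 3 lower, beside 1631 higher and 2737 lower of all 5449 genes. On all 3 chemostat arrays 27 of the genes were above every batch array and 3 were below, a separation that 35.3% and 46.4% of all genes showed in those directions.

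**Figure D1:**
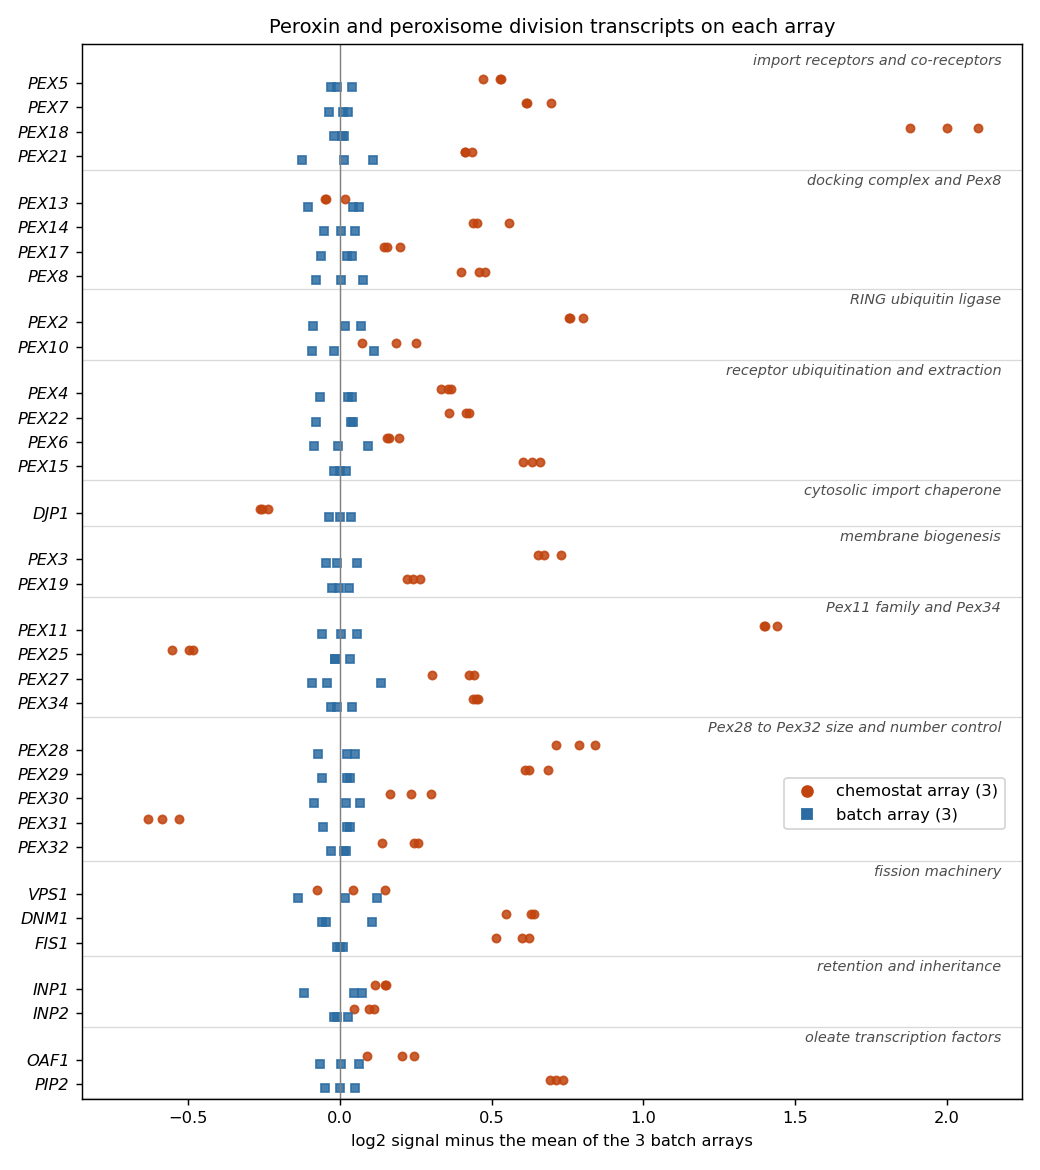
Log2 signal of each of the 33 genes on the 3 chemostat arrays (circles) and the 3 batch arrays (squares), each minus the mean of that gene's batch arrays, grouped by role. PEX11 lies at 1.41 on average; PEX18 is drawn further right, but its batch signals are below background, so its distance is not a measured size, and DJP1, PEX25 and PEX31 lie left of all their batch arrays.

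The arrays of each mode were close to each other for these genes. Relative to each gene's mean over the 6 arrays, the median of the 33 genes was 0.19, 0.20 and 0.20 on the chemostat arrays, against -0.22, -0.18 and -0.15 on the batch arrays. Within a group the SD had a median of 0.037 in chemostat and 0.056 in batch, and its highest values were 0.113 for PEX18 in chemostat and 0.131 for VPS1 in batch. By these medians no array stood apart for the set as a whole. The gap between batch replicate 1 and the mean of batch replicates 2 and 3 had a median of -0.016 over the 33 genes. By class its median lay between -0.068 for inheritance and 0.038 for the transcription factors, and it was -0.056 for import. The weights that limma gave the arrays over all genes, used in 1 alternative below, ranged between 0.40 and 6.56.

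Import genes form the largest class, with 15 members. Of these 13 rose, 1 fell and 1 did not pass; the median change was 0.42. The receptors carry cargo from the cytosol. PEX5 encodes the receptor for the common C-terminal targeting signal, PTS1. Its signals were 7.70, 7.76 and 7.75 in chemostat, against 7.21, 7.20 and 7.26 in batch, and it rose by 0.51 (SE 0.040, adjusted p = 6.43e-06). PEX7 encodes the receptor for the rarer N-terminal signal, PTS2, whose known cargo includes the thiolase Pot1. It stood at 8.40, 8.32 and 8.31 in chemostat and at 7.66, 7.73 and 7.71 in batch, a rise of 0.64 (SE 0.042).

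Pex7 works with a co-receptor, either Pex18 or Pex21, which share their function in part. PEX18 (YHR160C) gave 7.17, 7.39 and 7.29 in chemostat, against 5.30, 5.30 and 5.27 in batch. All 3 batch values lie below the background level, so only a bound can be given, and chemostat exceeded batch at least 2.50-fold. The adjusted p of 3.23e-08 is limma's for the signals as deposited, and the bound itself was not tested. The bound sets the chemostat mean of 7.28 against the mean, over the batch arrays, of the higher of each array's own background and the gene's signal; the measured batch mean was 5.29. PEX21 (YGR239C) was well above background in both modes, with 8.72, 8.70 and 8.70 in chemostat and 8.16, 8.30 and 8.40 in batch. PEX21 rose by 0.42 (SE 0.060, adjusted p = 0.000249). Of the co-receptor transcripts, PEX21 was thus above background in both modes and PEX18 in chemostat alone.

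At the membrane, cargo-loaded receptors bind the docking proteins Pex13, Pex14 and Pex17. PEX14 gave 8.75, 8.63 and 8.65 in chemostat, against 8.14, 8.24 and 8.20 in batch, and rose by 0.48 (SE 0.049). PEX13 read 7.72, 7.78 and 7.72 in chemostat and 7.81, 7.83 and 7.66 in batch. The groups overlapped for PEX13, and its change of -0.03 did not pass (adjusted p = 0.683, 95% interval -0.15 to 0.10). PEX17 had 6.89, 6.90 and 6.95 in chemostat, against 6.68, 6.79 and 6.77 in batch, and rose by 0.17 (adjusted p = 0.00760), but not after quantile normalization, which gave -0.0017 (adjusted p = 0.975). PEX8, whose product sits inside the organelle and bridges docking and ubiquitin ligase complexes, rose by 0.45 (SE 0.050), to 8.19 ± 0.04 in chemostat against 7.75 ± 0.08 in batch (SD). Of these 4 genes, 3 rose and 1 did not pass.

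Receptors are released from the membrane after ubiquitination. Pex2 and Pex10, RING-finger subunits of the ligase, attach ubiquitin, and of the import genes above background in both modes PEX2 rose most. PEX2 signals were 9.22, 9.26 and 9.22 in chemostat, against 8.38, 8.48 and 8.53 in batch, a change of 0.77 (SE 0.049, adjusted p = 1.94e-06). PEX10 read 8.03, 7.96 and 7.85 in chemostat, against 7.69, 7.89 and 7.76 in batch, and here chemostat replicate 9 fell below batch replicate 2. Its rise of 0.17 (SE 0.067) passed narrowly (adjusted p = 0.0452). It no longer passed without batch replicate 1 (0.12, adjusted p = 0.132), batch replicate 3 (0.16, adjusted p = 0.109), chemostat replicate 4 (0.13, adjusted p = 0.130) or chemostat replicate 8 (0.16, adjusted p = 0.111).

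Pex4 is the ubiquitin-conjugating enzyme for the receptors and Pex22 its membrane anchor. Both transcripts rose by similar amounts. PEX4 gave 7.51, 7.50 and 7.48 in chemostat and 7.08, 7.18 and 7.17 in batch, a rise of 0.35 (SE 0.043). PEX22 gave 7.37, 7.44 and 7.43 in chemostat and 6.93, 7.05 and 7.05 in batch, a rise of 0.40 (SE 0.047). Pex6, an AAA ATPase, pulls the ubiquitinated receptor out, and Pex15 anchors it. PEX15 rose by 0.63 (SE 0.038), with 8.06, 8.08 and 8.03 in chemostat against 7.43, 7.45 and 7.41 in batch. PEX6 read 7.38, 7.34 and 7.35 in chemostat, against 7.18, 7.10 and 7.28 in batch, a rise of 0.17 (adjusted p = 0.0150) that did not pass after quantile normalization (0.12, adjusted p = 0.0525). DJP1, a cytosolic J-domain chaperone known to assist peroxisomal protein import, was the import gene that fell. Its signals were 8.01, 7.98 and 7.99 in chemostat, against 8.21, 8.25 and 8.28 in batch, a change of -0.25 (SE 0.038, adjusted p = 0.000358) or 1.19-fold lower. DJP1 is not confined to this organelle, since it also helps mitochondrial outer membrane proteins.

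**Figure D2:**
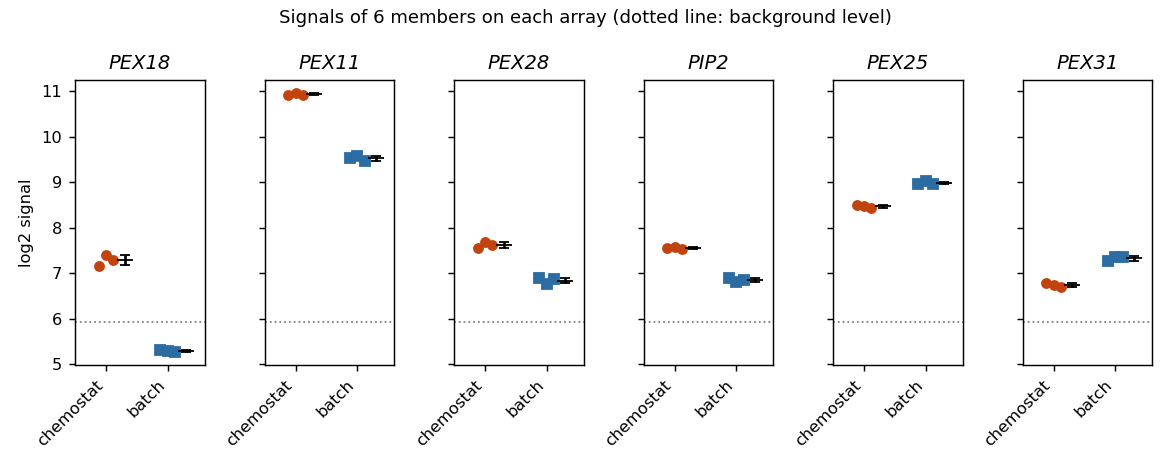
Log2 signals of PEX18, PEX11, PEX28, PIP2, PEX25 and PEX31 on each chemostat array (circles) and each batch array (squares), with the mean and SD of each group beside the points and the background level of 5.93 dotted. PEX18 in batch is the case below the dotted line, and PEX25 and PEX31 are lower in chemostat.

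Membrane biogenesis is represented by PEX3 and PEX19, and both rose. Pex19 binds new membrane proteins in the cytosol and Pex3 receives it at the membrane. PEX3 gave 8.60, 8.68 and 8.62 in chemostat, against 7.90, 8.01 and 7.94 in batch, a change of 0.68 (SE 0.044, adjusted p = 1.94e-06). PEX19 gave 8.63, 8.62 and 8.66 in chemostat, against 8.39, 8.42 and 8.37 in batch, a change of 0.24 (SE 0.038, adjusted p = 0.000427). The groups stood apart for both genes, and the median of the pair was 0.46.

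Division and size control had 12 members, of which 9 rose, 2 fell and 1 did not pass; the median change was 0.42. This class held the genes that moved against each other within a family. Pex11, an abundant peroxisomal membrane protein, elongates the membrane ahead of fission, and Pex25 and Pex27 are its relatives. PEX11 (YOL147C) had 10.93, 10.97 and 10.93 in chemostat, against 9.54, 9.59 and 9.47 in batch, and rose by 1.41 (SE 0.043, adjusted p = 4.23e-08), or 2.66-fold. PEX25 (YPL112C), whose product also acts in forming peroxisomes anew, read 8.50, 8.49 and 8.43 in chemostat and 8.97, 9.02 and 8.97 in batch. PEX25 fell by 0.51 (SE 0.040, adjusted p = 6.04e-06), or 1.43-fold. PEX27 (YOR193W) gave 7.32, 7.34 and 7.20 in chemostat, against 7.03, 6.85 and 6.81 in batch, and rose by 0.39 (SE 0.068). PEX34, which acts with the Pex11 family, rose by 0.45 (SE 0.038), to 8.93 ± 0.01 in chemostat against 8.48 ± 0.04 in batch (SD).

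Pex28 to Pex32 are membrane proteins that share a dysferlin-like domain, and their loss changes the number and size of peroxisomes. Pex30 and Pex31 reside in the endoplasmic reticulum and help shape its membrane. PEX28 had 7.55, 7.68 and 7.63 in chemostat and 6.89, 6.77 and 6.86 in batch, a rise of 0.78 (SE 0.051, adjusted p = 2.31e-06). PEX29 had 7.95, 8.03 and 7.96 in chemostat and 7.37, 7.37 and 7.28 in batch, a rise of 0.64 (SE 0.044). Both changes are larger than those of PEX30 and PEX32, a difference that was not tested across these pairs. PEX30 read 8.02, 8.15 and 8.09 in chemostat, against 7.77, 7.87 and 7.92 in batch, for a rise of 0.23 (adjusted p = 0.00456). PEX32 read 7.73, 7.72 and 7.62 in chemostat, against 7.45, 7.50 and 7.49 in batch, for a rise of 0.21 (adjusted p = 0.00248). PEX31 (YGR004W) went the other way and had the largest fall of the 33 genes. Its signals were 6.80, 6.74 and 6.70 in chemostat, against 7.27, 7.36 and 7.35 in batch, a change of -0.58 (SE 0.045, adjusted p = 5.79e-06).

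Fission is carried out by dynamin-related GTPases. Vps1 is the main one for peroxisomes in glucose-grown cells and also serves vacuolar sorting, whereas Dnm1, recruited through Fis1, divides mitochondria and peroxisomes. VPS1 read 8.74, 8.85 and 8.96 in chemostat, against 8.83, 8.67 and 8.93 in batch. The groups overlapped for VPS1, whose change of 0.04 did not pass (adjusted p = 0.668, 95% interval -0.14 to 0.22). DNM1 gave 8.60, 8.69 and 8.70 in chemostat and 8.16, 7.996 and 8.01 in batch, a rise of 0.61 (SE 0.056, adjusted p = 1.64e-05). FIS1 gave 9.17, 9.15 and 9.06 in chemostat and 8.54, 8.56 and 8.54 in batch, a rise of 0.58 (SE 0.042, adjusted p = 4.02e-06). DNM1 and FIS1, both shared with mitochondria, thus changed by nearly the same amount. Of 5 further genes of mitochondrial fission and fusion, 2 rose, 2 fell and 1 did not pass (median change 0.03). Of all genes 33.6% were higher and 44.8% lower, so these counts set the 5 apart in neither direction. The adaptor gene CAF4, which links Fis1 to Dnm1, fell by 0.22 (adjusted p = 0.00636). MDV1, named after its values were seen, fell by 0.14 (adjusted p = 0.0313), so the rise of DNM1 and FIS1 was not shared by these 2 genes. UGO1 and FZO1, of outer membrane fusion, rose by 0.32 and 0.25.

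Inheritance genes changed by small amounts, with a median of 0.11, or 0.014 after quantile normalization. Inp1 tethers peroxisomes in the mother cell and Inp2 is the receptor that hands them to the myosin bound for the bud. INP1 read 7.26, 7.26 and 7.22 in chemostat, against 6.99, 7.16 and 7.18 in batch, and its rise of 0.14 (SE 0.055) passed narrowly (adjusted p = 0.0484). Leaving out batch replicate 1 reduced it to 0.08 (adjusted p = 0.1004), and it also failed without batch replicate 2 (0.16), chemostat replicate 4 (0.13), chemostat replicate 8 (0.13) or chemostat replicate 9 (0.15). After quantile normalization INP1 changed by 0.079 (adjusted p = 0.191). INP2 read 6.97, 7.04 and 7.02 in chemostat, against 6.95, 6.91 and 6.92 in batch. The groups did not overlap for INP2, but its change of 0.08 did not pass (adjusted p = 0.0754, 95% interval -0.0049 to 0.17) and was -0.05 after quantile normalization.

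OAF1 and PIP2 encode zinc cluster activators that bind the oleate response element as a heterodimer; PIP2 is itself a target of the pair. PIP2 (YOR363C) gave 7.56, 7.59 and 7.54 in chemostat, against 6.90, 6.80 and 6.85 in batch, and rose by 0.71 (SE 0.041, adjusted p = 1.11e-06), or 1.64-fold. OAF1 (YAL051W) read 7.17, 7.28 and 7.32 in chemostat, against 7.08, 7.01 and 7.14 in batch, a rise of 0.18 (adjusted p = 0.0166). That rise did not pass after quantile normalization (0.11, adjusted p = 0.0714), nor when batch replicate 2 (0.15), chemostat replicate 8 (0.17) or chemostat replicate 9 (0.15) was left out. Of other regulators, ADR1, an activator of glucose-repressed genes that also acts on peroxisomal ones, was below background in batch. ADR1 reached 8.24 ± 0.10 in chemostat against 5.69 ± 0.21 in batch (SD), at least 4.85-fold higher by the bound. Its adjusted p of 1.54e-07 is limma's for the signals as deposited, and the bound was not tested. OAF3, a repressor linked to oleate-responsive genes, changed by -0.03, which did not pass (adjusted p = 0.541).

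Whether related genes changed by different amounts was asked of 11 pairs, by the difference between both signals on each array. An exact two-sided permutation test over the 6 arrays cannot go below p = 0.1, or 0.122 after adjustment over the 11 pairs, so no pair could pass 0.05. In 9 of the 11 pairs the differences did not overlap between modes. Signals of single genes did not overlap for 81.7% of all genes, which is an unlike measure. The share over all gene pairs was not computed, and some genes belong to more than 1 of the 11 pairs. Among the pairs measured above background in both modes, the widest contrast was between PEX11 and PEX25: PEX11 exceeded PEX25 by 2.43, 2.48 and 2.50 in chemostat and by 0.56, 0.57 and 0.50 in batch, a shift of 1.92 (exact p = 0.1). PEX18 minus PEX21 shifted by at least 0.90, a bound that sets PEX18 to the background level in batch. Between PEX11 and PEX27 the shift was 1.02, and PEX25 minus PEX27 shifted by -0.90. Within the other family, PEX30 minus PEX31 shifted by 0.82 and PEX31 minus PEX32 by -0.80, while PEX28 minus PEX29 shifted by 0.14. OAF1 minus PIP2 shifted by -0.53 and VPS1 minus DNM1 by -0.57. PEX30 and PEX32 (0.02, exact p = 0.7) and INP1 and INP2 (0.05, exact p = 0.8) were the pairs whose differences overlapped between modes, and for both the sign turned when 1 array was left out.

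**Figure D3:**
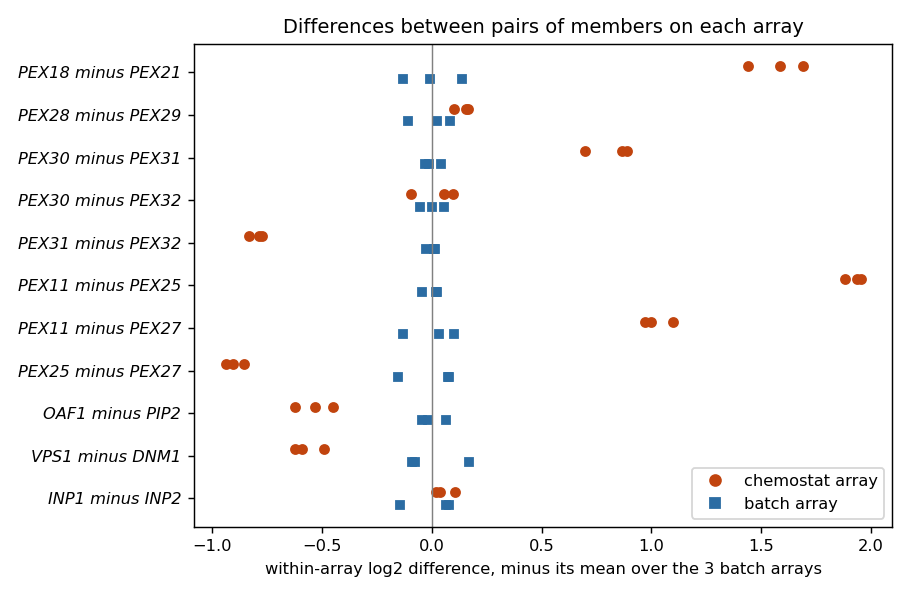
Within-array log2 difference between the genes of each of 11 pairs, minus its mean over the 3 batch arrays, on chemostat arrays (circles) and batch arrays (squares). The chemostat points of PEX11 minus PEX25 lie around 1.92, those of PEX30 minus PEX32 overlap the batch points, and the distance drawn for PEX18 minus PEX21 is not a measured size, since PEX18 is below background in batch.

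Transcripts of many proteins that this machinery imports had larger changes. Of 26 measured genes for peroxisomal enzymes and transporters, 22 rose and 4 fell, with a median change of 2.14 beside the 0.40 of the machinery; the difference between these lists was not tested. In that list 19 genes rose by 2-fold or more, against 2 of the 33 (PEX18, by its bound, and PEX11) and 8.18% of all genes. CTA1, the peroxisomal catalase, stood at 10.62 ± 0.06 in chemostat and below background, at 5.36 ± 0.02, in batch (SD). POT1, the thiolase imported by Pex7, stood at 10.27 ± 0.07 in chemostat and, also below background, at 5.27 ± 0.03 in batch. Among the 4 that fell, NPY1, a peroxisomal NADH diphosphatase, changed by -0.62 (SE 0.048, adjusted p = 5.75e-06) and CIT2, the peroxisomal citrate synthase, by -0.61 (SE 0.12, adjusted p = 0.00187), so that their order is not resolved. CIT2, named after its values were seen, read 11.05, 10.53 and 10.59 in chemostat, against 11.35, 11.35 and 11.30 in batch, with chemostat replicate 4 nearest to batch. Removal of peroxisomes by autophagy is represented by ATG36, the receptor on the organelle, which rose by 2.19, and ATG11, the adaptor for selective autophagy, which rose by 0.76.

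**Figure D4:**
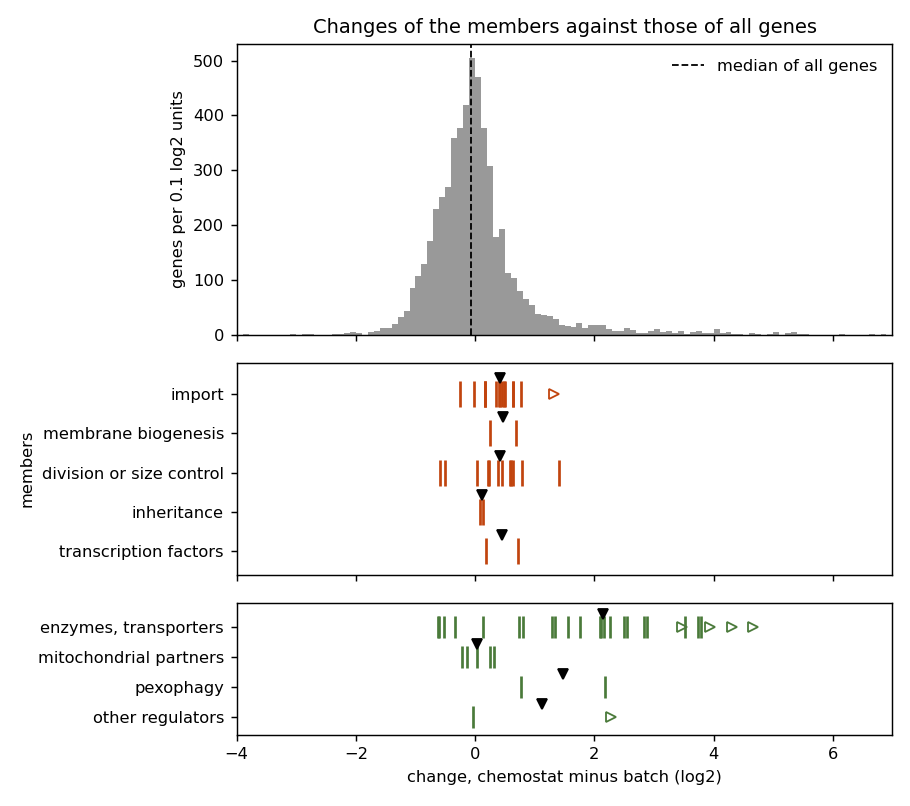
Top, number of genes by change (chemostat minus batch, log2) over all 5449 genes, with their median of -0.06 dashed; middle and bottom, each vertical mark is 1 gene, each open arrowhead a gene below background in batch drawn at its lower bound, and each filled triangle a class median. Vertical marks of the 33 genes run between -0.58 and 1.41 with PEX18 at its bound of 1.32, and those of the enzymes and transporters between -0.62 and 3.79 with 4 bounds up to 4.66.

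Among all 5449 genes ranked by fitted change, PEX11 lay at the 94.5th percentile, PEX28 at the 89.3rd and PEX2 at the 89.2nd, whereas PEX31 lay at the 16.7th and PEX25 at the 20.0th. A test that asks for more than a 1.5-fold change (limma's treat) called PEX18, PEX11, PEX28, PEX2 and PIP2 higher and none of the 33 lower, beside 11.0% and 10.4% of all genes. At an unadjusted p under 0.05, treat gave 6 of the 33 higher and 0 lower. All genes were not counted at that threshold, so these counts cannot be set against a share.

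Upstream chromosomal neighbours of the 33 genes were called in both directions, as all genes were. By the gene order of reference assembly R64, 17 of the 33 are transcribed away from their upstream neighbour, so that both genes face the same intergenic stretch. Of the 16 such neighbours measured, 7 rose, 7 fell and 2 did not pass, and their median change was 0.01. Of all genes 33.6% were higher and 44.8% lower, so these counts set the neighbours apart in neither direction. Where both genes passed, 6 moved the same way as their neighbour and 7 the opposite way. PEX3 and its neighbour UBX5 changed by 0.68 and 0.69, and PEX14 and LYS5 by 0.48 and 0.57, while PEX2 rose by 0.77 beside OPT1, which changed by -1.03, and PEX28 rose by 0.78 beside SKG6, which changed by -0.61. These neighbours were picked for display after their values were seen.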

How the data were processed

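GeneChip arrays were hybridised with biotin-labelled total RNA of 3 chemostat and 3 batch samples, per the labels. The authors deposited 1 log2 signal for each probe set on each array. The submitters' processing notes name PLIER; the sources used here state neither its version nor any background or between-array step. Base 2 was inferred from the range of 4.95 to 13.3. Values were used as deposited.

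S. cerevisiae genes were named by 5498 of the 10928 probe sets. Symbols were updated through a RefSeq gene table of assembly R64, used also for neighbour order but not for coordinates, since no build is named for the arrays. Where a gene had several (47 genes, no member among them), the brightest was taken. Fission yeast probe sets (1746) gave the background level; a gene whose group mean lay at or below it in 1 group has only a bound. Chemostat was compared with batch by limma 3.58.1 in R 4.3.3 (lmFit, eBayes, two-sided, no covariates), adjusted over 5449 genes; SE is limma's. Pairs were tested in scipy 1.17.1. Code was checked on simulated data. Members and lists were chosen with earlier results of these data known. All members are named. Of the other lists, those named are the 2 largest rises that passed, by fitted change, and the largest fall. CIT2 and MDV1 were named besides. Alternatives were quantile normalization, 2 centrings, a filter on dim genes, background subtraction, a trended robust variance, array weights, probe set means, all probe sets tested, an adjusted p of 0.01, treat at 1.5-fold and each array left out; a pseudocount planned for linear values did not apply. Promoter and protein sequences were not used here, nor was the RNA sequencing of the same extractions.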

Additional observations from a re-analysis of the deposited data

How the results depend on the processing

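Of 17 alternatives, 16 left between 23 and 28 of the 33 genes higher and 3 lower. Over all genes those 16 called between 1606 and 1950 higher and between 2195 and 2737 lower. Treat at 1.5-fold left 5 higher and 0 lower, beside 601 and 564 of all genes. Limma's test without that margin gave 3 lower. At an unadjusted p under 0.05 treat gave 0 lower, a threshold at which all genes were not counted. With 1 array left out, 24 to 26 genes were higher and 3 lower, beside 1660 to 1808 and 2280 to 2438 of all genes. Treat aside, 27 genes kept their call and direction of call in every alternative; the other 6 were PEX6, PEX10, PEX17, INP1, INP2 and OAF1. PEX17 turned to -0.0017 after quantile normalization. INP2, not called as reported, passed with centring on the fission yeast median (0.11), background subtraction (0.13), array weights (0.11) and all probe sets tested (0.08). Background subtraction raised class medians to 0.53 for import, 0.52 for membrane biogenesis, 0.52 for division or size control, 0.16 for inheritance and 0.60 for the transcription factors. Quantile normalization gave 0.44 for import and 0.48 for membrane biogenesis, above the reported medians, and 0.39 for division or size control, 0.014 for inheritance and 0.37 for the transcription factors, below them. The cause was not tested. With 1 array left out, medians lay between 0.36 (without batch replicate 1) and 0.48 for import, 0.45 and 0.48 for membrane biogenesis, 0.39 and 0.45 for division or size control, 0.09 and 0.13 for inheritance, and 0.42 and 0.47 for the transcription factors. The pair difference of PEX30 and PEX32 lay between -0.018 (without chemostat replicate 9; -0.0079 without batch replicate 1) and 0.076, and that of INP1 and INP2 between -0.019 (without batch replicate 1) and 0.093; no other pair turned its sign. Background subtraction took away the median fission yeast signal of each array, a level other than the 5.93 used as background elsewhere. With it PEX18 changed by 5.39, which is not a measured size, since its batch signals lie below 5.93. No paired analysis was possible because chemostat and batch samples share no replicate number.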
